A study of Homo sapiens with 16 samples.

Results

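A set of 10 immediate early and AP-1 genes was examined in H3K27ac ChIP-seq peak lists of K562 cells, an established human line from a chronic myelogenous leukemia. The 10 genes, out of 19974 protein-coding genes of the autosomes and the X chromosome, were *FOS*, *FOSB*, *JUN*, *JUNB*, *JUND*, *EGR1*, *IER2*, *ATF3*, *DUSP1* and *ZFP36*. For each gene, the peaks that touched its window were collected, where the window is the gene body plus 10 kb on either side in GRCh38 and a peak is an interval with a -log10 q-value of at least 2. All 10 windows held at least 1 peak in all 14 lists, as did those of 12271 of the 19974 genes. Together the lists had 886 peaks in these windows, out of 1065840 peaks in all.

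The 14 lists come from 14 ChIP reactions on fixed K562 chromatin, in 2 arms of 7. In the fixed arm, every reaction received 0.25 µg of antibody to H3K27ac, for chromatin amounts of 312, 625, 1250, 2500, 5000, 10000 or 20000 ng, measured as DNA content. These libraries are named by amount and titer, from K562-H3K27ac-0.31-T32 through K562-H3K27ac-0.62-T16, K562-H3K27ac-1.25-T8, K562-H3K27ac-2.5-T4, K562-H3K27ac-5-T2 and K562-H3K27ac-10-T1a to K562-H3K27ac-20-T0.5, where the titer is the antibody per chromatin relative to the optimal ratio. Below, the shared start of the names is left out. In the normalized arm, the antibody was scaled to the chromatin so that each of the same 7 amounts had titer 1 (K562-H3K27ac-0.31-T1, K562-H3K27ac-0.62-T1, K562-H3K27ac-1.25-T1, K562-H3K27ac-2.5-T1, K562-H3K27ac-5-T1, K562-H3K27ac-10-T1b and K562-H3K27ac-20-T1). The labels name no stimulus, so the comparisons concern the ChIP reaction. There is 1 library per condition, apart from 10-T1a and 10-T1b, which share 10 µg of chromatin and titer 1. In the fixed arm titer and chromatin amount cannot be told apart, since the titer falls as the amount rises. A separate input library served each arm, so arm, input and preparation cannot be told apart when the arms are compared.

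Immediate early genes are transcribed within minutes of a growth or stress signal, without new protein synthesis. FOS and JUN family proteins dimerize to form AP-1, a transcription factor that binds TGACTCA and related sites, and *EGR1* encodes a zinc finger factor of the same response. Several of these genes also encode brakes on the response, such as the MAP kinase phosphatase DUSP1 and the mRNA decay factor ZFP36. Acetylation of histone H3 at lysine 27 marks the nucleosomes that flank active promoters and enhancers, and it can be present at these genes in unstimulated cells.

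The promoters of 5 of the genes are shown because the peaks around them carry the comparisons described later. Each line gives 250 bases before and 50 bases after the RefSeq start site (GRCh38.p14), on the strand of the gene. *FOS* is at chr14:75278578-75278877 (plus strand), *EGR1* at chr5:138465229-138465528 (plus strand), *IER2* at chr19:13150161-13150460 (plus strand), *JUN* at chr1:58783998-58784297 (minus strand) and *DUSP1* at chr5:172771146-172771445 (minus strand). Capitals mark every match, on either strand, to the CArG box bound by SRF, the cAMP response element TGACGTCA, its shorter core TGACG, the AP-1 site TGACTCA, the EGR site GCGTGGGCG and the TATA sequence TATAAA.
FOS: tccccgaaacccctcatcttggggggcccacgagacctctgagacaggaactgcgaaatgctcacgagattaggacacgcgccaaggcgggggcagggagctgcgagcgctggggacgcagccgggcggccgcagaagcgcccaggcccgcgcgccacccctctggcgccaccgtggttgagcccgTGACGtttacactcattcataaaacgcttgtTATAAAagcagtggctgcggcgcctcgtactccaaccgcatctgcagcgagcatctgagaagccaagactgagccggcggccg
EGR1: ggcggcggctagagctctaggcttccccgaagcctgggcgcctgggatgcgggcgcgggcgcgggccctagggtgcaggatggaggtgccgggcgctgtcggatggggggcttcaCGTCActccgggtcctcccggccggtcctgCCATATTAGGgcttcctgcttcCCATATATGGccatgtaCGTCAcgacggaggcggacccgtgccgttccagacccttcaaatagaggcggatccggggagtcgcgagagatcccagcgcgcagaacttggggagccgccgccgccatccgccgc
IER2: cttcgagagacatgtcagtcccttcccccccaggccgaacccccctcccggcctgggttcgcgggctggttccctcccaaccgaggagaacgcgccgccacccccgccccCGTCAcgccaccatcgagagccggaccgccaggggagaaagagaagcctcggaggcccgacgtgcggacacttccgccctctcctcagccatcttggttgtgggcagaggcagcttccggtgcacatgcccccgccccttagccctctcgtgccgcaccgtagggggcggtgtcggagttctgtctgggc
JUN: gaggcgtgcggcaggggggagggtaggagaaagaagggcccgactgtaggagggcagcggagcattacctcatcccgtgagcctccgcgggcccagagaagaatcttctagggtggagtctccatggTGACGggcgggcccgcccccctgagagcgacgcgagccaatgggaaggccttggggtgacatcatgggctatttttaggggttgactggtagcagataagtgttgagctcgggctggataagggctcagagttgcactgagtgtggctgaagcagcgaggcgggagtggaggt
DUSP1: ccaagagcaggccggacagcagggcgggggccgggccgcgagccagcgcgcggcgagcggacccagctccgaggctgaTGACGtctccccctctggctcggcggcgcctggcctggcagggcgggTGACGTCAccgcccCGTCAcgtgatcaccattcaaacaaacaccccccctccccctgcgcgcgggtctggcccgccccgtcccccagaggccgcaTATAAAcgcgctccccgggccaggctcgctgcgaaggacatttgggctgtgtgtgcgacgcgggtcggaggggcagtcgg

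A full TGACGTCA contains the core on each strand, so these matches overlap. *EGR1* had 2 CArG boxes, at -105 to -96 and at -83 to -74 relative to the start site, and a CArG box was in 277 of 22156 promoters of the same length. TGACGTCA was present in *DUSP1* (-125 to -118) and *JUND* (-200 to -193), against 2.26% of promoters. The core TGACG was in the listed promoters of all members apart from *ATF3* and *ZFP36*, against 27.9% of promoters. In *FOS* it lay at -64 to -60. TATAAA lay between -33 and -25 in *FOS*, *FOSB*, *JUNB* and *DUSP1*, and it was in 9.46% of promoters at any position. TGACTCA (4.02% of promoters) and GCGTGGGCG (1.05%) had no match in the member promoters within these windows.

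The lists had 64083 to 81930 peaks in the fixed arm and from 68137 to 82143 in the normalized one, with median fold enrichments of 4.62 to 4.96 and of 4.63 to 5.02. Peak calls, q-values and fold enrichments all depend on read depth, which the lists do not hold and which was not used here. As a check of the cell type, the erythroid and progenitor genes *GATA1*, *TAL1*, *KLF1*, *NFE2*, *LMO2*, *HBG1*, *HBG2* and *TFRC* had peaks in all 14 lists. *HBG1* and *HBG2* shared their strongest peak. Of the contrast genes, *MS4A1*, *MYOD1* and *NEUROD1* had no peak in any list and *ALB* had one in 4 lists, whereas the windows of *CD3D* and *APOA2* had a peak in all 14 and that of *CD3E* in 12.

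H3K27ac peaks flanked the start sites of the *JUN* family genes more often than they covered them. *JUN* (chr1:58780791-58784047, minus strand) had a region from 20 to 2286 bp downstream of its start site and another from -1320 to -226 bp, each with a peak in all 14 lists, and the start site itself lay in a peak in 0 of 14. The upstream region covers the start of *JUN-DT*, a divergent non-coding transcript. *JUND* (chr19:18279694-18281622, minus strand) had the same arrangement, with regions from 15 to 3944 bp and from -2245 to -250 bp and no start site in a peak. Its window also touched a region from -14027 to -5525 bp that reached a fold enrichment of 24.5, the highest of the peaks that touched it. The summit of that peak lay at -10482 bp, outside the window. The start of *IQCN* lay in a weaker region from 5718 to 7414 bp. *JUNB* (chr19:12791486-12793315, plus strand) lay inside a merged region of 21419 bp that also holds the starts of *HOOK2*, *PRDX2* and *THSD8*, so the values of its window are shared with these neighbours. All 3 *JUN* family genes had a peak within 1 kb of the start site in all 14 lists.

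*FOS* (chr14:75278828-75282230, plus strand) had a promoter region from -1564 to 675 bp and a second region from 4423 to 6559 bp, beyond the end of the gene, each with peaks in all 14 lists. Its start site was inside a peak in all 7 fixed libraries and in 4 of the 7 normalized libraries. *FOSB* (chr19:45467996-45475179, plus strand) had a promoter region from -865 to 1220 bp, an intragenic region from 1432 to 5329 bp and a downstream region from 9895 to 11114 bp in all 14 lists. By its listed start sites, *ATF3* (chr1:212565407-212620777, plus strand), an ATF/CREB family gene induced by stress, was the exception among the members. No list had a peak within 1 kb of either of its listed start sites, and its strongest peak lay in an upstream region whose edges are -7667 and -4938 bp from the distal start site. Further regions inside the gene had a peak in all 14 lists. They lay from -7264 to -6551 bp and from -6344 to -5040 bp relative to the other listed start site. Their fold enrichments were 4.49 to 8.12 and 4.74 to 12.1. Whether they flank a start site that is not listed was not tested. *GARIN4* starts within the *ATF3* window.

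*EGR1* (chr5:138465479-138469303, plus strand) had its strongest peaks just upstream, in a region from -2729 to -81 bp that was present in all 14 lists, and the region over its start site was weaker and present in 11. *IER2* (chr19:13150411-13154911, plus strand), which encodes a nuclear immediate early protein, had a promoter region from -1721 to 1358 bp shared with the start of *STX10*, which lies at -36 bp. A wide region followed from 1525 to 6950 bp, over the gene and past its end. *DUSP1* (chr5:172768096-172771195, minus strand) had a domain of 7070 bp across its start site. *ZFP36* (chr19:39406847-39409407, plus strand) had a region of 7242 bp across its start site and further regions on both sides, including the start of *PLEKHG2*. Within its own list, the strongest *IER2* peak ranked between 20 and 1086 by fold enrichment and the strongest *DUSP1* peak between 26 and 1710. The strongest *FOS* peak ranked between 2593 and 21961, the lowest placing of the 10 genes. The maps of called peaks for *FOS*, *EGR1* and *IER2* show these positions.

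**Figure D1:**
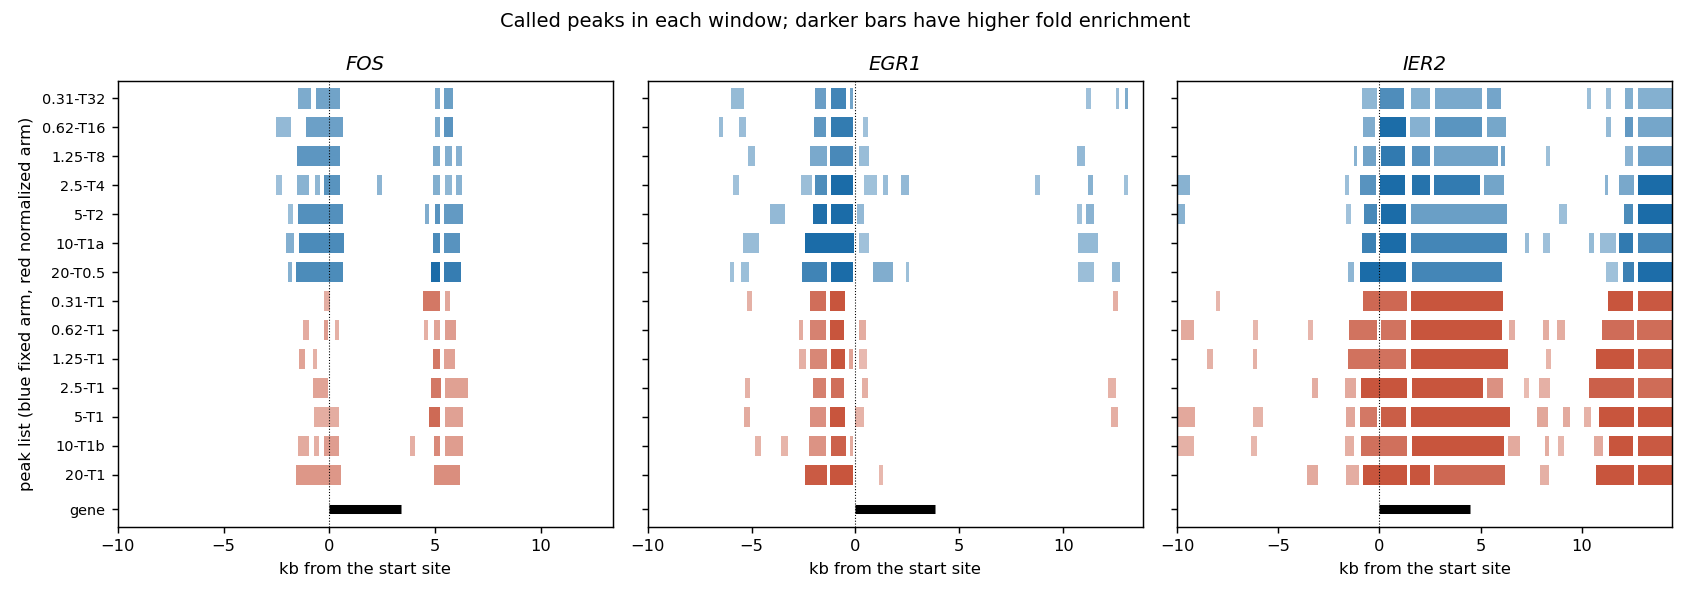
Called H3K27ac peaks in the *FOS*, *EGR1* and *IER2* windows, with 1 row per peak list (blue, fixed arm; red, normalized arm), the distance from the start site in kb on the x axis, darker bars for higher fold enrichment and the gene as a black bar. The *FOS* promoter peaks are darker in the blue rows and cover less in the red rows apart from 20-T1. A group of *EGR1* peaks beyond the gene end appears in blue rows alone, and the *IER2* peaks just beyond the promoter are darker in the red rows.

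To ask how antibody excess changed the extent of H3K27ac over these genes, the share of each window covered by peaks was correlated with log2 titer over the 7 fixed libraries. Coverage fell as titer rose in 8 of the 10 genes (exact permutation tests over all pairings, Benjamini-Hochberg adjusted p under 0.05 over all genes tested). Over all 13670 genes with a value, 57% fell by the same rule and the median r was -0.85, and the median r of the members was -0.90. In *JUND*, coverage was 24.8% in 0.31-T32, a median of 39.1% and 50.4% in 20-T0.5 (r = -0.96, exact permutation p = 0.00198, adjusted p = 0.0122). The lowest value was at the highest titer and the highest at the lowest titer. In *JUNB*, coverage ranged from 57.9% in 0.31-T32 to 84.9% in 20-T0.5, with a median of 72.9% (r = -0.91, exact permutation p = 0.00516, adjusted p = 0.0184). *JUN* had 6.23% in 0.31-T32, a median of 10.7% and 12.3% in 20-T0.5 (r = -0.87, exact permutation p = 0.00357, adjusted p = 0.0155). *FOS* rose from 10.2% in 0.31-T32 to 15.6% in 20-T0.5 around a median of 13.2% (r = -0.91, exact permutation p = 0.00913, adjusted p = 0.0247).

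Among the other members, *EGR1* had the widest relative span, from 10.2% in 0.62-T16 through a median of 14.6% to 21.9% in 20-T0.5 (r = -0.90, exact permutation p = 0.00754, adjusted p = 0.0223). *IER2* ranged from 34.3% to 43.7% with a median of 39.6%, and the 3 libraries with titers of 8 or more had its 3 lowest values (r = -0.88, exact permutation p = 0.0151, adjusted p = 0.0329). *DUSP1* ranged from 15.5% in 0.31-T32 to 28.3% in 10-T1a with a median of 23.7% (r = -0.92, exact permutation p = 0.00198, adjusted p = 0.0122). *ZFP36* ranged from 51.3% in 0.31-T32 to 68.5% in 10-T1a with a median of 59.4% (r = -0.94, exact permutation p = 0.00397, adjusted p = 0.0161). *FOSB* and *ATF3* did not pass. *FOSB* had values of 11.7% to 18.6% in no order of titer (r = -0.48, exact permutation p = 0.269, adjusted p = 0.307). With 50 kb on either side *FOSB* did pass (r = -0.98, adjusted exact permutation p = 0.00587). *ATF3*, whose window is 75371 bp long, had 2.14% to 3.73% (r = -0.45, exact permutation p = 0.320, adjusted p = 0.358). Spearman's rho was -0.86 to -0.96 in the 8 genes called. Without 0.31-T32, the library of the highest titer, 0 members and 1678 genes passed in place of 8 and 7813. Without 2.5-T4 or without 10-T1a 5 members passed, beside 3112 and 5115 genes.

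**Figure D2:**
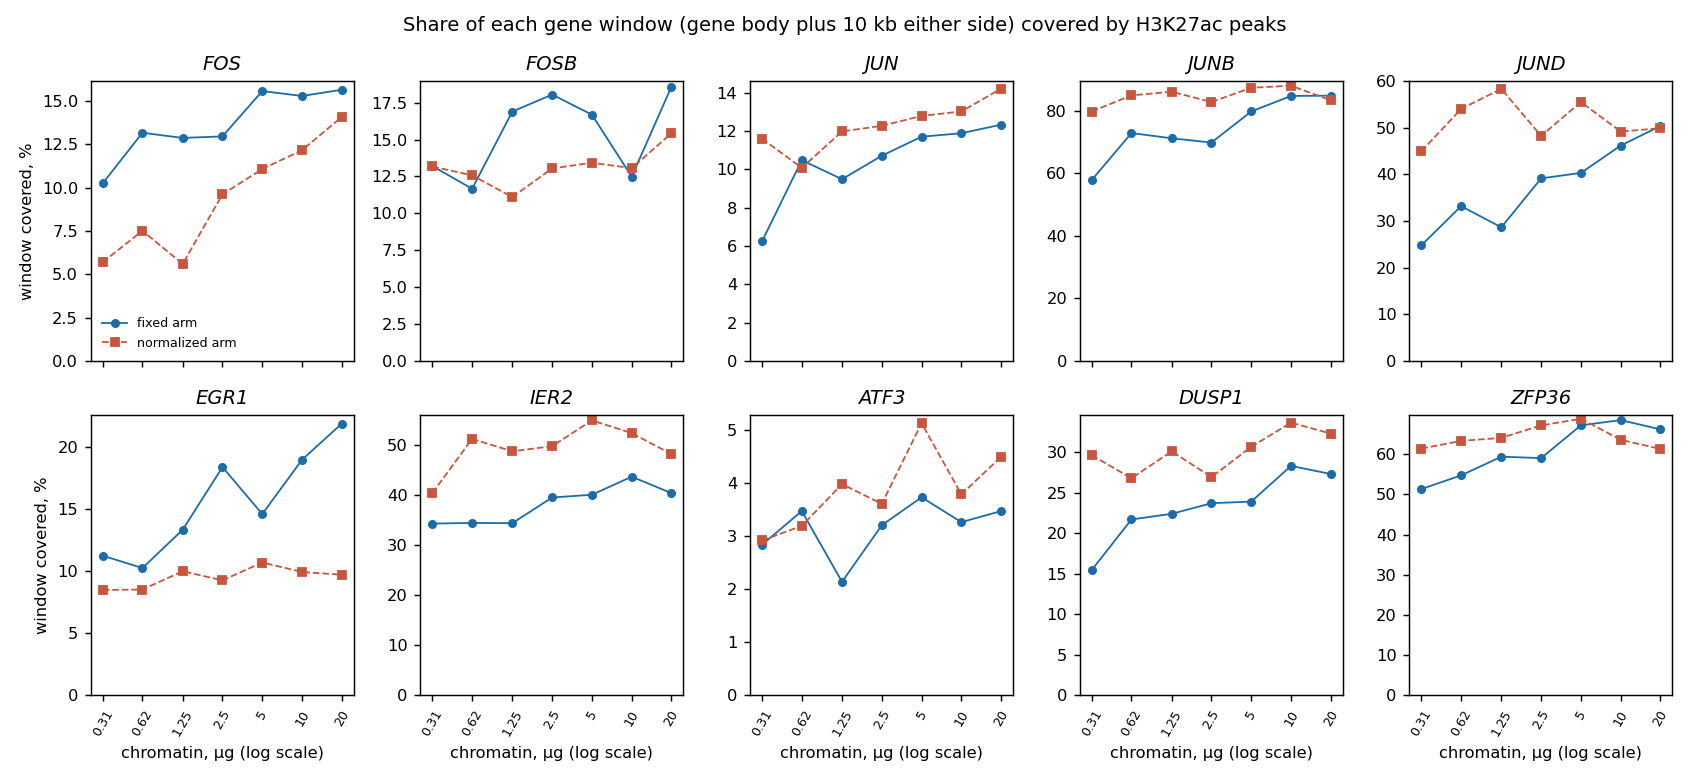
Share of each gene window covered by H3K27ac peaks (y axis, percent) against the chromatin amount in µg on a log axis, with 1 point per library, blue circles for the fixed arm and red squares for the normalized arm. Coverage in the fixed arm rises with the chromatin amount in most panels, and the fixed arm lies above the normalized arm in *FOS* and *EGR1* and below it in *IER2* and *DUSP1*.

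The strongest peak of each window was examined in the same way, as log2 of its fold enrichment over input. All 10 members fell with rising titer after adjustment, beside 76.5% of the 12271 genes with a peak in every list, so the members' count reads against a background in which most genes fell. *IER2* had the steepest change, from 10.5 in 0.31-T32 to 27.3 in 20-T0.5 with a median of 17.8, a log2 slope of -0.23 for each doubling of titer (r = -0.97, exact permutation p = 0.00119, adjusted p = 0.00737). *ZFP36* changed by -0.22 per doubling, from a lowest value of 9.69 to a highest of 25.5 (r = -0.95, adjusted exact permutation p = 0.0106). *DUSP1* changed by -0.20 per doubling, from 11.7 in 0.31-T32 to 25.3 in 10-T1a (r = -0.91, adjusted exact permutation p = 0.0101). *FOS* had the smallest slope, -0.12 per doubling, from 7.97 to 15.99 with a median of 9.55 (r = -0.86, adjusted exact permutation p = 0.00737), and its highest value stood apart in 20-T0.5. The remaining slopes were -0.15 in *FOSB*, -0.16 in *JUNB*, -0.17 in *JUN*, -0.19 in *EGR1* and *ATF3* and -0.20 in *JUND*.

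The strongest peak was also taken relative to the rest of its own list. With the fold enrichment expressed as a percentile within its list, or after the list's median over all genes was subtracted, 0 members and 0 genes passed. The smallest exact permutation p seen over titer was 0.000397, so a gene can pass adjustment only if many genes have such small values. These counts therefore do not show whether the members differed from the rest of their lists. The percentile of the strongest peak over the 14 lists was lowest in *FOS*, at 72.1 to 96.3, and highest in *IER2*, at 98.6 to 99.97.

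**Figure D3:**
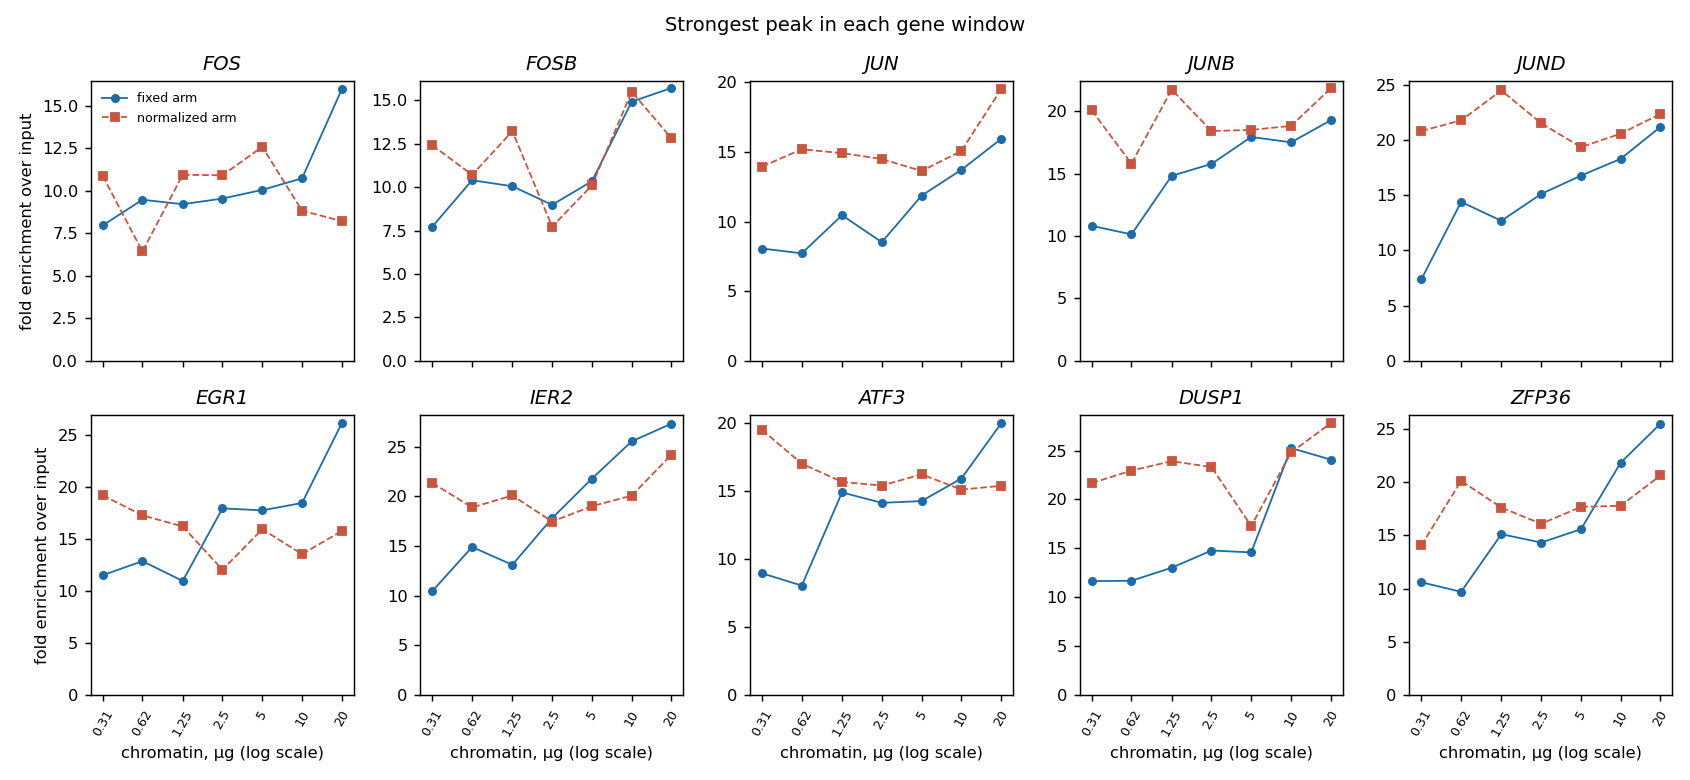
Fold enrichment over input of the strongest peak in each gene window (y axis) against the chromatin amount in µg on a log axis, with 1 point per library, blue circles for the fixed arm and red squares for the normalized arm. Values in the fixed arm rise with the chromatin amount in all 10 panels. The normalized arm is flatter, as in *JUND*, where it stays between 19.4 and 24.5 at summits outside the window.

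**Figure D4:**
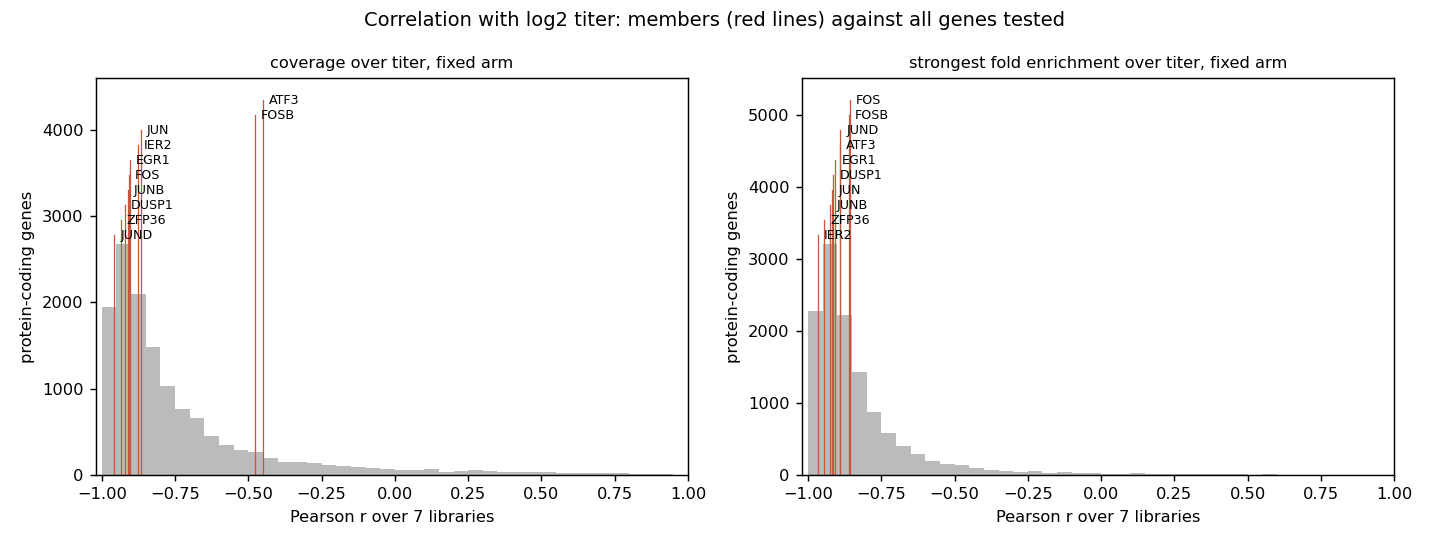
Histograms of Pearson's r with log2 titer over the 7 fixed libraries for all protein-coding genes tested (grey, number of genes per bin), for window coverage on the left and log2 strongest fold enrichment on the right, with each member as a red line. The members lie within the main mass of genes, apart from *FOSB* and *ATF3* at -0.48 and -0.45 for coverage.

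In the normalized arm, where the titer stayed at 1, the same values were correlated with log2 chromatin amount. No gene passed the exact permutation test after adjustment, for coverage or for the strongest peak. At an unadjusted p under 0.05, coverage rose in 2893 genes, 21.2% of those tested, and fell in 5. The 2 members among them were *FOS* and *JUN*. *FOS* went from 5.69% in 0.31-T1 and a lowest value of 5.60% in the library of 1250 ng through a median of 9.61% to 14.1% in 20-T1 (r = 0.94, exact permutation p = 0.00357, adjusted p = 0.117, rho = 0.89). Its coverage rose by 1.43 percentage points per doubling of chromatin. *JUN* ranged from 10.1% to 14.2% with a median of 12.3% (r = 0.87, exact permutation p = 0.00873, adjusted p = 0.135, rho = 0.96). *JUND* and *ZFP36* had r values of 0.04 and 0.14, with ranges of 44.9% to 58.3% and of 61.3% to 68.9%.

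For the strongest peak in the normalized arm, 40 genes, 0.326% of 12271, had a lower value with more chromatin at an unadjusted p under 0.05, and 1441 had a higher one. *ATF3* was among the 40, with values of 15.1 to 19.5 and its highest in 0.31-T1 (r = -0.79, exact permutation p = 0.0196, adjusted p = 0.365). Its r was -0.68 when the lowest and the highest amount were left out. The other 9 members had r values between -0.55 in *EGR1* and 0.59 in *JUN*, with unadjusted exact permutation p-values of 0.158 or more.

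The arms were then set side by side at the 6 chromatin amounts where their titers differed. The exact sign-flip permutation test over 64 patterns cannot give a p below 0.03125, and after adjustment 0 genes passed. At the unadjusted level, coverage was higher in the normalized arm in 6202 genes, 45.3% of 13676, and lower in 96 genes, 0.702%, and the median difference over all genes was 1.78 percentage points in favour of the normalized arm. *FOS* and *EGR1* were among the 96. In *FOS*, mean coverage was 13.4% in the fixed arm and 8.93% in the normalized arm, a difference of -4.48 percentage points, lower in the normalized library at 6 of 6 amounts (exact sign-flip permutation p = 0.03125, adjusted p = 0.0679). In *EGR1*, the means were 14.9% and 9.42%, a difference of -5.50 percentage points with the same direction at 6 of 6 amounts (exact sign-flip permutation p = 0.03125, adjusted p = 0.0679). These differences are at the 0.285th and 0.139th percentiles of all genes. The normalized values of *EGR1* covered 8.46% to 10.7% with a median of 9.69%, overlapping the lowest fixed value.

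The same difference was present where the titers were equal. At 10 µg and titer 1, 10-T1b was below 10-T1a by -3.13 percentage points in *FOS* and by -9.03 in *EGR1*. Both genes stayed lower in the normalized arm under other limits on the peaks, with varying p. When peaks needed a -log10 q of 3 or more, the difference was -4.12 percentage points in *FOS* (exact sign-flip permutation p = 0.03125) and -2.60 in *EGR1* (p = 0.15625), and with 5 or more it was -4.69 (p = 0.0625) and -1.88 (p = 0.03125). Over the gene body alone, with 5 kb and with 50 kb on either side, *FOS* had -11.9, -7.83 and -1.35 percentage points, each at an exact permutation p of 0.03125. In *EGR1* the same 3 windows gave -8.10, -4.90 and -0.83 percentage points, with exact permutation p-values of 0.375, 0.15625 and 0.15625.

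*IER2* and *DUSP1* differed the other way. *IER2* averaged 37.2% in the fixed arm and 48.9% in the normalized arm, 11.7 percentage points higher and higher at 6 of 6 amounts, and *DUSP1* averaged 22.4% and 29.4%, 7.01 percentage points higher at 6 of 6 amounts (exact sign-flip permutation p = 0.03125, adjusted p = 0.0679 for each). The normalized values were 40.4% to 55.0% in *IER2* and 26.8% to 33.7% in *DUSP1*, each overlapping the highest fixed values. At 10 µg and titer 1, 10-T1b was above 10-T1a by 8.72 percentage points in *IER2* and by 5.35 in *DUSP1*. *JUND* and *JUNB* were higher by 15.8 and 11.3 percentage points at 5 of 6 amounts (exact sign-flip permutation p = 0.0625, adjusted p = 0.104 for each). *JUN* (1.997 percentage points), *ZFP36* (4.71) and *ATF3* (0.745) were higher at 5 of 6 amounts, and *FOSB* was lower by -2.72 percentage points with 1 of 6 amounts higher, all with an exact sign-flip permutation p of 0.0625 or more. In the pair at 10 µg and titer 1, the differences were 2.996 in *JUND*, 3.27 in *JUNB*, 1.14 in *JUN*, 0.524 in *ATF3* and 0.578 in *FOSB*, and *ZFP36* was lower in 10-T1b, by -4.90 percentage points.

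For the strongest peak, 0 genes passed after adjustment of the exact sign-flip permutation test, and 4006 genes, 32.6% of 12271, were higher in the normalized arm at the unadjusted level, with 107 lower. *JUN*, *JUNB*, *JUND* and *DUSP1* were among the 4006, with log2 differences of 0.59, 0.42, 0.64 and 0.64 and the normalized library higher at 6 of 6 amounts. In *JUNB* the strongest summit lay 779 to 10112 bp from the start site in the fixed libraries. In the normalized libraries it lay at -7443 to -1801 bp, so the *JUNB* difference compares different peaks. With 5 kb on either side and over the gene body alone, which leave out the far upstream region, *JUND* had 0.50 and 0.24 (exact sign-flip permutation p = 0.0625 and 0.40625). Over the gene body alone *JUN* and *JUNB* had 0.84 and 0.47 (exact sign-flip permutation p = 0.03125 for each). *DUSP1* had 0.30 there (exact sign-flip permutation p = 0.46875). In *FOS* and *EGR1* the log2 differences were -0.05 and 0.04, where the median gene had 0.39.

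The windows hold several separate peaks, so the arms were also compared region by region, a comparison added after the window values had been seen. Merging the 14 lists gave 72 regions in the member windows, of which 26 had a peak in all 14 lists and 16 had a peak in a single list. Among all 18472 regions with a peak in every list, all 7 fixed values exceeded all 7 normalized values in 0.206%, and all 7 normalized values exceeded all 7 fixed values in 5.73%. The *FOS* promoter region was in the former set. Its fold enrichment was 7.44, 7.83, 9.22, 9.55, 10.1, 10.7 and 10.7 in the fixed libraries from 0.31-T32 to 20-T0.5, and 4.52, 6.44, 5.74, 5.79, 4.63, 6.47 and 7.25 in the normalized libraries from 0.31-T1 to 20-T1. At matched amounts the normalized arm had 0.624-fold of the fixed arm, a log2 difference of -0.68, lower at 6 of 6 amounts (exact sign-flip permutation p = 0.03125, adjusted p = 0.101). At 10 µg and titer 1 the log2 difference was -0.73. The *FOS* region beyond the gene end overlapped between the arms, at 5.89 to 15.99 and 6.42 to 12.6, with a matched ratio of 1.11 (exact sign-flip permutation p = 0.625).

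The regions of *IER2* had matched ratios both below and above 1. Its promoter region had 10.5 at the lowest, 17.8 at the median and 27.3 at the highest in the fixed arm and 11.4, 12.7 and 21.1 in the normalized arm, a matched ratio of 0.840 with 5 of 6 amounts lower (exact sign-flip permutation p = 0.125). The region from 1525 to 6950 bp had 7.12 to 14.04 in the fixed arm and 17.5 to 24.2 in the normalized arm, without overlap, and a matched ratio of 2.06 (exact sign-flip permutation p = 0.03125, adjusted p = 0.101). The region from 10108 to 12592 bp had 5.28 to 13.1 and 12.3 to 18.3, a matched ratio of 1.998 at the same p. At 10 µg and titer 1 the promoter region had a log2 difference of -1.12 and the region from 1525 to 6950 bp had 0.82. The summit of the strongest *IER2* peak lay 318 to 859 bp from the start site in the fixed libraries and 2095 to 3699 bp from it in the normalized libraries.

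Among the 26 member regions, 9 were higher in the normalized arm at an unadjusted exact sign-flip p of 0.03125, beside 29.1% of all regions, and 1, the *FOS* promoter, was lower, beside 1.71%. The 9 were those of *JUNB* and *DUSP1*, 3 of *JUND*, 2 of *IER2* and 1 each of *JUN* and *ZFP36*. The *JUNB* region is the merged one of 21419 bp, in which the strongest peak lay at different sites in the arms. No region of the series passed after adjustment of the exact test, and the smallest adjusted p was 0.101. In *JUN* the region downstream of the start site had 5.23 to 10.6 in the fixed arm and 10.0 to 19.5 in the normalized arm, a matched ratio of 1.78. In *JUND* the region from -4104 to -2423 bp did not overlap between the arms, with 3.17 to 5.20 and 5.27 to 7.20. The *DUSP1* domain had 11.7 to 25.3 and 17.3 to 27.8, a matched ratio of 1.56, and at 10 µg and titer 1 the log2 difference was -0.03. The median matched log2 difference was 0.33 in the member regions and 0.33 in all regions.

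Some weaker regions were called in 1 arm alone. Of 56 member regions called in at least 2 lists, 7 were in fixed lists alone and 5 in normalized lists alone, beside 10.2% and 16.8% of all 91503 such regions. A region near *EGR1* from 10651 to 11670 bp downstream of the start site (chr5:138476130-138477149) had a peak in 6 of 7 fixed lists, with fold enrichments of 3.48 to 5.44, and in 0 of 7 normalized lists, also when all deposited peaks were counted. Of 42656 regions called in 6 lists or more, 0.258% had at least 6 fixed lists and no normalized list, and 1.48% had at least 6 normalized lists and no fixed list. A region upstream of the *FOS* promoter (chr14:75276284-75277136) was called in 5 fixed lists at 3.46 to 5.84 and in 0 normalized lists, and among all deposited peaks it was called in 1 normalized list. The regions in normalized lists alone were weak as well. Upstream of *IER2*, a region from -6341 to -5787 bp was called in 4 normalized lists at 3.39 to 4.15 and one from -3608 to -3035 bp in 3 at 3.65 to 4.95, and 2 regions of *DUSP1* and 1 of *JUN* were called in 2 normalized lists each.

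**Figure D5:**
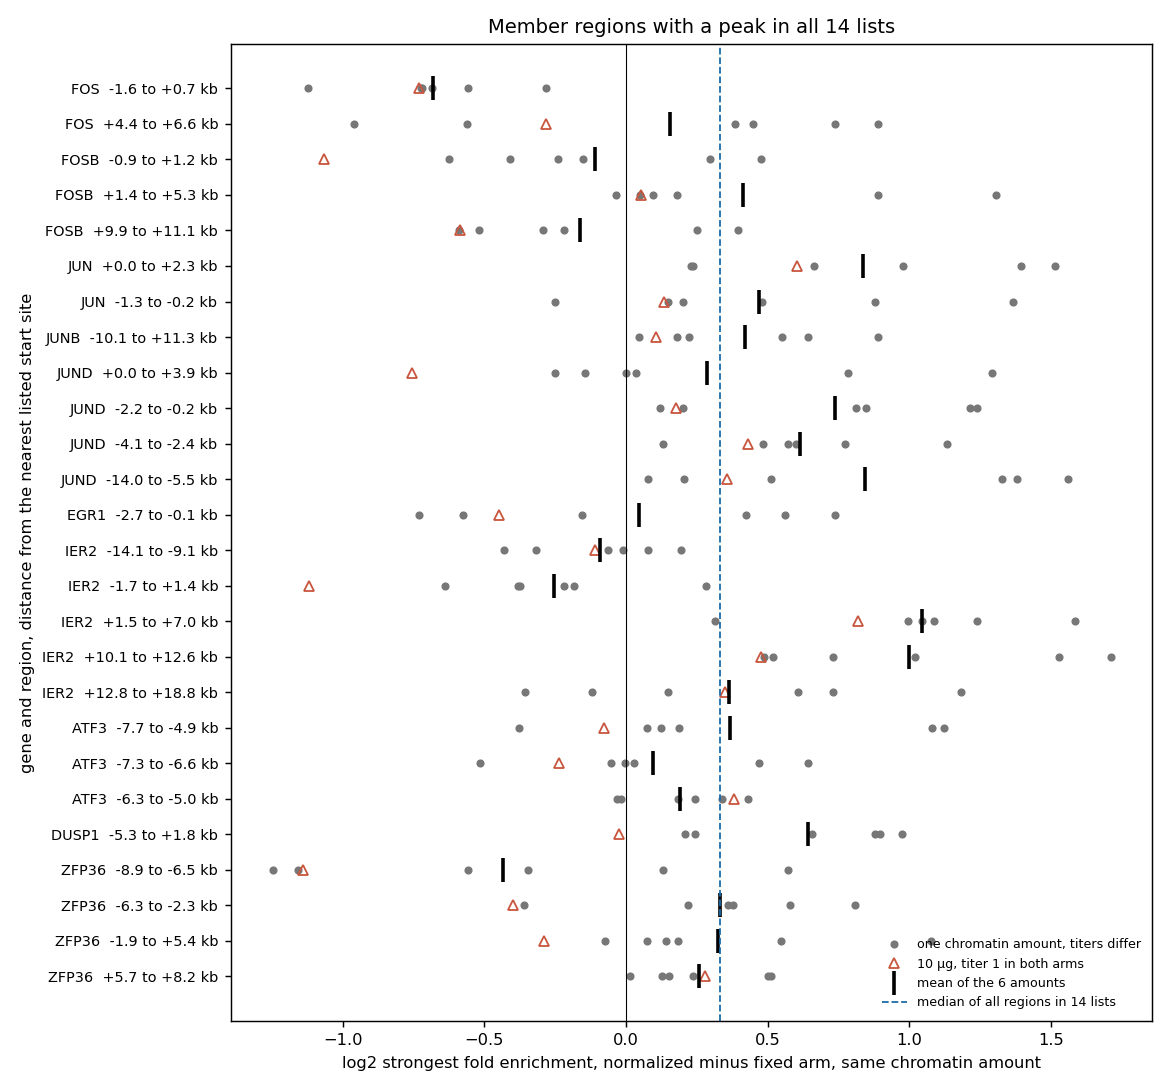
Log2 difference in the strongest fold enrichment, normalized minus fixed arm at the same chromatin amount (x axis), for the 26 member regions with a peak in all 14 lists, each named by its gene and distance from the nearest listed start site in kb. Grey points are the 6 amounts with different titers, black bars their mean, red triangles the 10 µg pair at titer 1, and the dashed line is the median of all such regions, at 0.33. All *FOS* promoter points lie below 0 and all points of the *IER2* region beyond the promoter lie above 0.

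To compare the dependence on chromatin between the arms, the slope of log2 strongest fold enrichment per doubling of chromatin was taken in each arm and the arms were swapped within each amount in all possible ways. The smallest p this exact permutation test allows is 0.015625, and 0 genes passed after adjustment. At the unadjusted level, 1563 genes, 12.7% of 12271, had a higher slope in the fixed arm. *EGR1* and *IER2* were the members among them. In *EGR1* the slope was 0.19 in the fixed arm and -0.06 in the normalized arm, and in *IER2* it was 0.23 and 0.02 (exact permutation p = 0.015625, adjusted p = 0.309 for each). For coverage no gene passed after adjustment and 625 had a higher and 51 a lower slope at an unadjusted exact permutation p under 0.05, none of them a member.

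Other genes of the pathway were counted by the same rules, beside 57% of all genes whose coverage fell with titer and 76.5% whose strongest peak fell. Of all 19974 genes, 12271 had a peak in all 14 lists. Of 12 further AP-1 and bZIP genes, 10 had a peak in all 14 lists, and coverage fell with titer in 7 of the 11 that could be tested and rose in 0 (exact permutation tests, adjusted over all genes). *ATF2* and *ATF4* had the highest mean fold enrichment of their strongest peak over the 14 lists, 18.5 and 16.7, and *BATF2* and *FOSL2* the lowest, 6.05 and 6.49. Of 16 other immediate early genes, 11 had a peak in all lists, and *CCN2* and *NPAS4* had none in any list. Coverage fell with titer in 7 of 12 tested. *KLF6* and *NR4A3* had the highest means, 18.6 and 18.2, and *EGR2* and *NR4A1* the lowest, 7.48 and 8.07. *NR4A1*, an orphan nuclear receptor gene, had lower coverage in the normalized arm at matched amounts, by -2.36 percentage points (exact sign-flip permutation p = 0.03125).

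Of 14 feedback and mRNA decay genes, 10 had a peak in all lists and coverage fell with titer in 11 of 12 tested. The highest means were those of *PPP1R15A*, which encodes a phosphatase subunit of the stress response, and *NFKBIA*, the NF-kappa-B inhibitor, at 20.8 and 20.1, and the lowest those of *DUSP5* and *SPRY2* at 8.67 and 10.2. Of 12 upstream regulators, 11 had a peak in all lists, and coverage fell with titer in 8 of 12. *SRF*, whose product binds the CArG box, and *ELK4* had the highest means, 17.7 and 15.5, and the kinase genes *RPS6KA1* and *RPS6KA5* the lowest, 8.87 and 9.02. For the strongest peak the counts that fell were 7 of 10, 9 of 11, 8 of 10 and 7 of 11 in these lists, beside 76.5% of all genes. At matched amounts and an unadjusted exact permutation p under 0.05, coverage was higher in the normalized arm in 6, 3, 7 and 5 of their genes, beside 45.3% of all genes, and lower in 0, 1, 0 and 0, beside 0.702%. The median r of coverage with titer was -0.88, -0.82, -0.94 and -0.88, next to -0.85 over all genes.

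After the median of each list was subtracted, the genes on other chromosomes whose strongest fold enrichment followed a member most closely over the 14 lists were *NDUFAF8* for *FOS* (Pearson's r = 0.93), *DKK4* for *JUND* (0.91), *CTNND1* for *IER2* (0.88), *ASPRV1* for *JUN* (0.87), *ANGEL2* for *JUNB* (0.87), *ZNF852* for *FOSB* (0.87), *GARRE1* for *DUSP1* (0.86), *PPP4R3A* for *ATF3* (0.84) and *ILKAP* for *ZFP36* (0.82). These are the highest of 12271 genes in 14 lists that share chromatin, inputs and arms, and they are given as a description.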

How the data were processed

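ChIP DNA from fixed K562 chromatin was sequenced as paired reads and processed by the authors, who aligned them with BWA (0.5.9 in the submitters' processing notes, which also list CASAVA 1.4 and hg38) and ran MACS2 within Partek Flow on every library by itself, against the input of its arm. The deposited lists give each peak's position, its fold enrichment over input (a ratio), and a p-value and a q-value, both as -log10. Positions are in GRCh38, although the methods mention hg19, and nothing was lifted over. The deposited lists reach down to a q-value of 5%, whereas the paper states an FDR of 1%, so a -log10 q of 2 or more was required. This is not the study's own peak set. Read depth affects peak calls and fold enrichments, but the deposited lists hold no read counts, and the depth the paper lists was not used here. The number of libraries limits the precision.

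Gene bodies of 19974 protein-coding genes were taken from RefSeq (GRCh38.p14), and start sites, strands and promoter sequences from the matching promoter table, where all 10 members matched. Coverage was tested in genes with a peak in at least 7 of 14 lists and the strongest fold enrichment, on the log2 scale, in genes with a peak in all 14. Genes whose coverage did not vary had no correlation. All tests are two-sided and exact: Pearson's r over all pairings of 7 libraries, a sign-flip test over 64 patterns of 6 matched amounts, and swaps of the arms within amounts in all possible ways. They were adjusted by Benjamini-Hochberg over all genes tested, and called at an adjusted p under 0.05. With 1 library per condition, the p-values come from re-pairing single libraries or changing the sign of their differences. They do not measure the spread between libraries of the same condition. Regions were merged over the lists by at least 1 shared base. All 10 members are named, with the neighbours that start in their windows, the 2 highest and 2 lowest genes of each pathway list with a peak in all lists together with those with none, and the most alike gene per member. The members and lists were chosen with earlier results of these data known. The functions were tested on simulated data. The deposited inputs have no peak list and enter through peak calling. Computation used Python 3.11.15, numpy 2.4.6, scipy 1.17.1 and matplotlib 3.10.9. A few results for genes that are not members are not reported here.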

Additional observations from a re-analysis of the deposited data

Results flagged for a closer look

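In the fixed arm, the strongest *FOS* peak in 20-T0.5 had a fold enrichment of 15.99, far from the next value of 10.7, and the gap took up a share of 0.655 of the range of the 7 libraries (above Dixon's 95% critical value). This peak lay beyond the end of the gene, not at the promoter. In the normalized arm, the strongest *JUN* peak in 20-T1 had a fold enrichment of 19.5, against a next value of 15.2 and a gap share of 0.734. These are 2 of 40 sets of 7 values examined, and chance flags about 1 set in 20.

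The slope of log2 strongest fold enrichment over chromatin amount differed between the arms in *EGR1*, by 0.24 per doubling, and in *IER2*, by 0.21 per doubling, each at the smallest p that the exact arm-swap permutation test allows, 0.015625, with an adjusted p of 0.309. These are 2 of 20 slope tests over the members. The strongest *IER2* peak lay at the promoter in the fixed libraries and in the region behind it in the normalized libraries.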

How the results depend on the processing

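Each result was recomputed under up to 34 settings, and the counts of members called over titer in the fixed arm stayed within 1.5 times in 25 of 35 recomputed counts. For coverage over titer, 8 members were called, 3 over the gene body alone, 5 with 10-T1b and 10-T1a exchanged between the arms, and 0 to 7 when 1 library was left out, with 0 without 0.31-T32. The gene body alone called 4405 genes and the exchange 6980, in place of 7813. With 50 kb on either side, 9 members and 11752 genes were called. For the strongest fold enrichment over titer, 10 members were called, 5 over the gene body alone, 3 on a linear titer scale, 0 as percentiles in the list, 0 after subtraction of the list's median, and 6 to 10 when 1 library was left out, with 6 without 20-T0.5. The gene body alone called 7116 genes, the linear scale 3464 and the set without 20-T0.5 5612, in place of 9388. The cause of these changes was not tested. The counts for the normalized arm, the matched amounts and the slopes were 0 in the results given and under every setting run. This says little of stability, since at matched amounts the smallest exact p of 0.03125 passes adjustment only if most genes reach it. For the correlations within an arm, no paired analysis was possible because the replicate numbers name chromatin amounts with 1 library each. The comparisons at matched amounts and of the slopes are themselves paired by amount.

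Some directions turned, and not for small differences alone. The fall of the strongest peak with titer, called in all 10 members, turned in some of them once values were taken relative to their list. Coverage at matched amounts turned in *FOSB* (0.234 percentage points with -log10 q of at least 5, 3.92 with 50 kb) and *ATF3* (-0.043 over the gene body, -0.0204 with 5 kb). The r of the strongest peak with titer turned in percentiles for *FOS* (0.45), *FOSB* (0.13), *JUNB* (0.30), *EGR1* (0.016) and *DUSP1* (0.061), and after median subtraction for *FOS* (0.48), *FOSB* (0.26) and *JUNB* (0.19). The matched difference of the strongest peak turned in percentile points for *FOSB* (-4.96), *JUNB* (-0.028), *EGR1* (-2.79), *IER2* (-0.43) and *ZFP36* (-0.79). After median subtraction it turned for *FOSB* (-0.30), *EGR1* (-0.35), *IER2* (-0.13), *ATF3* (-0.024) and *ZFP36* (-0.10). In *FOS* it turned to 0.20 with 50 kb and 0.13 with the 5 titers over 1. With 1 amount left out it ranged from -0.15 to 0.13 in *FOS*, -0.022 to 0.17 in *FOSB* and -0.094 to 0.20 in *EGR1*. Read depth was not used here, so what it limits was not computed.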

Other observations

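Higher coverage went together with fewer and wider peaks in the *JUNB* window. The library 0.31-T32 had 16 peaks over 57.9% of this window and 10-T1a had 3 peaks over 84.8%, and the widest *JUNB* peak was 2635 to 9387 bp in the fixed arm and 5084 to 14012 bp in the normalized arm. Summed over the 10 windows, the fixed lists had 80, 71, 72, 80, 64, 55 and 62 peaks from the highest to the lowest titer, and the normalized lists had 52 to 66.

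At 10 µg and titer 1, where both arms had the same reaction conditions, the strongest fold enrichment of the *FOSB* promoter region was 11.9 in 10-T1a and 5.67 in 10-T1b, and that of the *ZFP36* region from -8945 to -6484 bp was 13.2 and 6.01. These are the only libraries that share a condition, and arm and input differ between them, so the values give a size and no test.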
